A study of Mus musculus with 16 samples.

Results

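Marker genes of choroid plexus epithelium and of meningeal fibroblasts, 31 in all, were followed in hypothalamus of 16 mice. The members were named genes, 9 for choroid plexus epithelium and 22 for meningeal fibroblasts, and every non-control probe carrying one of these names was read (38 probes). All 31 had a probe. Of these, 30 (8 choroid plexus and 22 meningeal) passed the detection filter (above background, by the scanner's own test, on 8 or more arrays), and they are among the 24363 genes tested. Slc4a5, a bicarbonate cotransporter of choroid plexus, was the member left out, with probes well above background on 6 and 1 arrays.

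The study set 8 KO chimera mice against 8 control mice, 1 animal per Agilent array and 1 colour (Cy3). For all 16 the labels give lethally irradiated (950 Rad) C57BL/6J recipients, a retro-orbital injection of whole bone marrow from Adrb1tm1BkkAdrb2tm1Bkk/J mice, which lack the beta-1 and beta-2 adrenergic receptors, and 2 to 3 months of recovery; a ratio of 1:4 between the donor strain and C57BL/6J is given without saying what was mixed. A donor strain is listed for the KO chimeras alone, so what marrow the control mice received is not settled by the labels, and no age is stated in these labels. Which cells of the samples came from injected marrow, and which carry the deletion, was not measured here. The 6 slides included 5 with animals of both groups, and each of the 2 scan days took 4 control and 4 KO chimera arrays. Between 27276 (KO chimera 1) and 43248 (control 8) spots per array were well above background, and the spike-in fit of control 8 had an R2 of 0. Levels are log2 of the processed intensity minus the array's 75th percentile, so 0 is the 75th percentile and 1 unit is a doubling. Hypothalamic markers were present: 15 of 16 were tested, with the neuropeptide genes Oxt at a mean level of 7.5 and Hcrt at 7.09.

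Choroid plexus epithelium is a secretory sheet in the brain ventricles that makes cerebrospinal fluid, carries ions, water and folate across, and releases transthyretin. Meningeal fibroblasts build the collagen and proteoglycan matrix around the brain and express transporters that clear solutes from the fluid. A dissected hypothalamus borders the third ventricle and the pia. In a bulk sample, fewer cells of a type and less RNA per cell cannot be told apart.

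Ttr, which encodes transthyretin, a carrier of thyroid hormone and retinol, had the largest standard deviation of all 24363 genes tested, 2.5 log2 units over the 16 animals. Its level ran from -2.03 in control 7 to 5.68 in control 3, a 210-fold span. In control mice the lowest, median and highest values were -2.03, 0.46 and 5.68, and in KO chimeras -1.66, 0.20 and 5.34. The high animals came from both groups: control 3 (5.68), KO chimera 1 (5.34), control 5 (4.38) and KO chimera 6 (2.85), with every other animal at or below 1.66. The processed intensity itself ran from 71.1 in control 4 to 19600 in control 3. The Ttr probe lies at chr18:20828519-20828577 (mm9, plus strand).

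**Figure D1:**
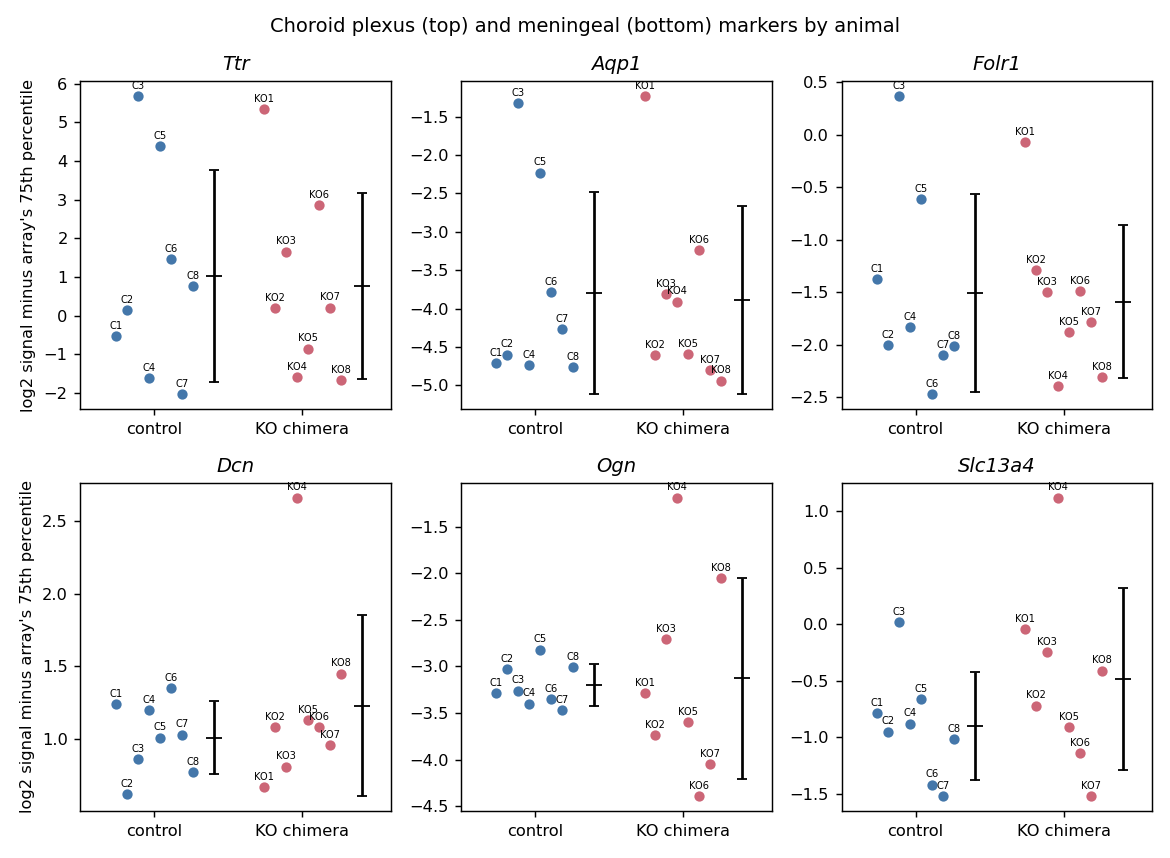
Level of 3 choroid plexus markers (top) and 3 meningeal markers (bottom) in each animal, as log2 signal minus the array's 75th percentile; each point is 1 animal (C, control; KO, KO chimera), and the black bars are the group mean and SD (n = 8). Control 3, control 5 and KO chimera 1 are the highest for Ttr, Aqp1 and Folr1, and KO chimera 4 is the highest for Dcn, Ogn and Slc13a4.

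Aqp1, the water channel of the fluid-facing membrane, ran from -4.94 to -1.23. Its lowest, median and highest values were -4.76, -4.44 and -1.32 in control mice and -4.94, -4.25 and -1.23 in KO chimeras. The same 3 animals led, KO chimera 1 (-1.23), control 3 (-1.32) and control 5 (-2.23), and the groups overlapped along the whole range. The probe (chr6:55298480-55298539, mm9, plus strand) was well above background on 5 control and 6 KO chimera arrays, so the low levels are poorly measured. Folr1, the folate receptor that moves folate into the fluid, was highest in control 3 (0.37), KO chimera 1 (-0.07) and control 5 (-0.61), and lowest in control 6 (-2.47). Kl, which encodes klotho, a co-receptor for an endocrine fibroblast growth factor, was highest in KO chimera 1 (-0.79), control 3 (-0.92) and control 5 (-1.32), with the others between -2.53 and -1.44.

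Otx2, a homeodomain transcription factor that maintains choroid plexus identity, peaked in KO chimera 1 (0.23), control 3 (0.15) and control 5 (-0.15), and was lowest in KO chimera 2 (-2.06). Sostdc1, a secreted antagonist of BMP and Wnt signals, peaked in KO chimera 1 (-1.04) and control 3 (-1.10), with KO chimera 8 (-1.33) next. Clic6, of the chloride intracellular channel family, and Prlr, the prolactin receptor, had another order. Clic6 stayed between 1.62 and 2.47, with KO chimera 8 highest, and Prlr between 1.13 and 2.50; of the animals high in Ttr, KO chimera 1 was the highest for Prlr (2.50) and control 5 the lowest (1.13). The dim Slc4a5 probe detected on 6 arrays had the same 3 leaders, control 3 (-3.12), KO chimera 1 (-3.49) and control 5 (-3.83), as a description of values mostly near background.

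Co-variation with Ttr was tested for each of the other 7 choroid plexus markers by permuting animals (100000 resamples, two-sided), with Benjamini-Hochberg adjustment over 29 relations that include those with Dcn given further on. The markers were chosen with earlier results of these data known, which the p-values here and for Dcn do not take into account. By Pearson's r, 5 of the 7 passed 0.05 and 2 did not. By Spearman's rho, Aqp1 alone passed. Aqp1 had r = 0.90 (n = 16, adjusted permutation p = 0.00058) and rho = 0.68 (adjusted permutation p = 0.0491). Folr1 had r = 0.84 (adjusted permutation p = 0.00174) and rho = 0.65 (adjusted permutation p = 0.056). On scan days 1 and 2, r was 0.95 and 0.89 for Aqp1 and 0.92 and 0.78 for Folr1. Folr1 did not pass 0.05 on day 2 (adjusted permutation p = 0.179). Without control 3 and KO chimera 1, the animals farthest from the median of Ttr, r was 0.78 for Aqp1 and 0.64 for Folr1. Control 5, also high in Ttr, stayed in for these values.

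Kl (r = 0.73, adjusted permutation p = 0.0132, rho = 0.46), Sostdc1 (r = 0.66, adjusted permutation p = 0.0298, rho = 0.55) and Otx2 (r = 0.63, adjusted permutation p = 0.0363, rho = 0.51) passed by Pearson's r. Without control 3 and KO chimera 1 their r fell to 0.36, 0.29 and 0.36, so these 3 relations rest on those animals. On scan days 1 and 2, r was 0.89 and 0.58 for Kl, 0.43 and 0.87 for Sostdc1, and 0.79 and 0.47 for Otx2. Clic6 (r = 0.02, raw permutation p = 0.955) and Prlr (r = -0.05, raw permutation p = 0.848) showed no detectable relation. Over all genes tested, 19 of 24362 (0.0780%) reached r of at least 0.7 with Ttr, and 3 of the 7 markers did.

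The probes of a gene did not always follow each other. A second Folr1 probe, at a mean level of -3.39 in control mice, had r = -0.06 with Ttr, and a second Otx2 probe, at -3.01, had r = 0.03. Their RefSeq or transcript entries differ from those of the probes used. The second Sostdc1 probe (r = 0.68) did follow Ttr, and the second Prlr probe (r = 0.08) did not. The statements on Folr1 and Otx2 hold for the brighter probe of each.

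**Figure D2:**
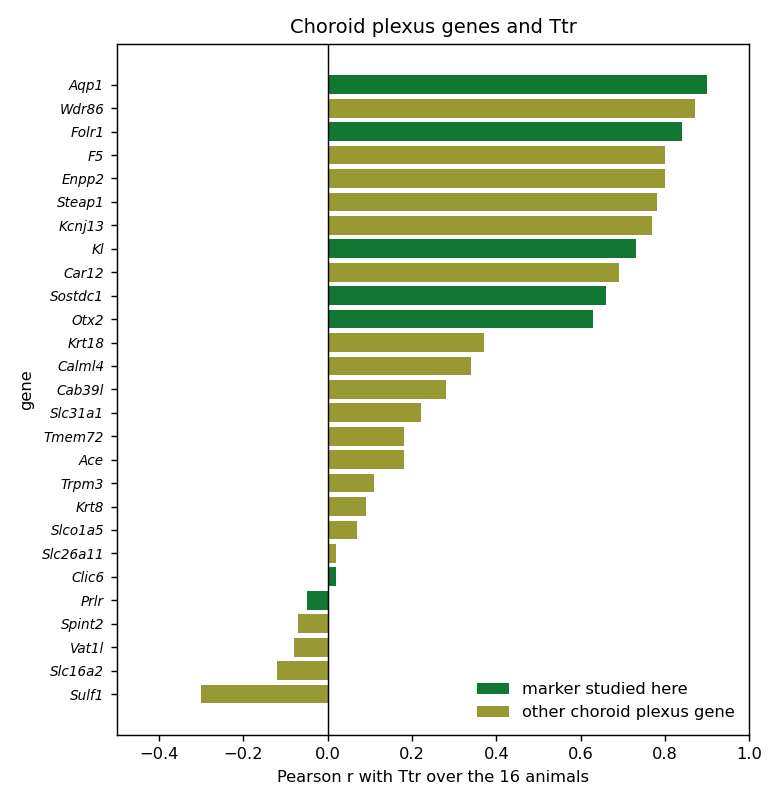
Pearson r with Ttr over the 16 animals for the 7 other choroid plexus markers (green) and 20 further choroid plexus genes (olive), 1 bar per gene. Aqp1, Folr1 and Kl among the markers and 5 of the 20 further genes reach 0.7, while Clic6 and Prlr lie near 0.

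Of 25 further choroid plexus genes, 20 were tested, and 5 reached r of at least 0.7 with Ttr: Wdr86, F5, Enpp2, Steap1 and Kcnj13. The median r of the 20 was 0.20, against -0.02 over all genes. Among the 5 brightest of this list, Enpp2, the autotaxin that makes lysophosphatidic acid, had r = 0.80 and a range of 3.65 to 4.96, with KO chimera 1, control 3 and control 5 on top. Cab39l (r = 0.28), Spint2 (-0.07), Vat1l (-0.08) and Sulf1 (-0.30) did not follow it. The mean centred level of the 20 genes ranged from -0.30 to 0.48 in control mice and from -0.17 to 0.45 in KO chimeras.

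The choroid plexus score, the mean over the 8 tested markers of the level centred per gene, was 1.52 in KO chimera 1, 1.5 in control 3, 0.77 in control 5, 0.37 in KO chimera 6 and 0.11 in KO chimera 3. The other 11 animals lay between -0.66 and -0.08. KO chimera 1, the highest, is also the array with the fewest spots well above background; its part in the result was not tested, while control 3, nearly as high, had 40129 such spots. Outside the markers, the 10 genes with the highest r with this score included Cox8b (0.91), a subunit of cytochrome oxidase, Ecrg4 (0.91), Tex22 (0.86) and 5 genes of the further choroid plexus list, Wdr86 (0.90), F5 (0.90), Kcnj13 (0.88), Steap1 (0.85) and Enpp2 (0.83); the other 2 have no gene symbol here. Each of the 10 peaked in control 3 or KO chimera 1, as choosing by r with a score highest in those animals favours. Without control 3, control 5 and KO chimera 1, r of the 10 with the score ran from 0.11 to 0.79. The highest-ranked, which has no gene symbol here, was well above background on 9 arrays, Tex22 on 11 and Wdr86 on 12. Their low levels are poorly measured.

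**Figure D3:**
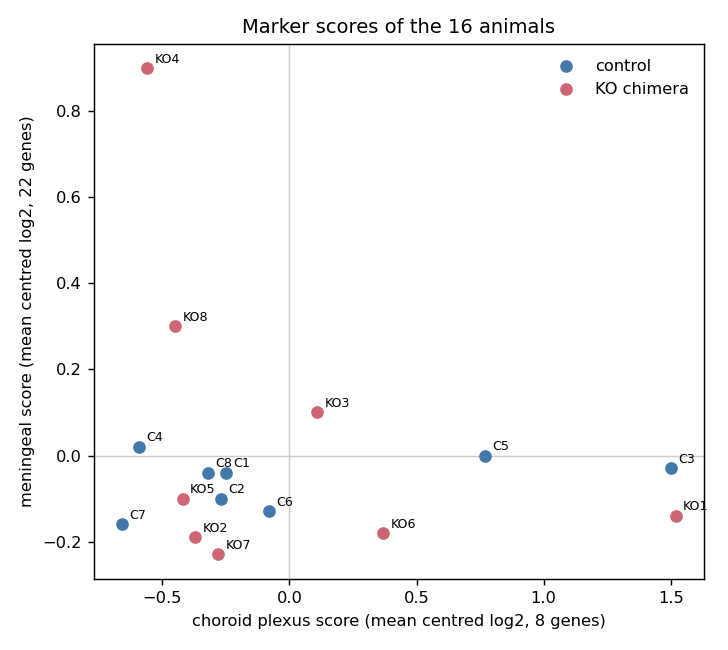
Choroid plexus score (x, 8 genes) against meningeal score (y, 22 genes) of each animal, both as mean centred log2 levels. Control 3, KO chimera 1 and control 5 stand out along x, and KO chimera 4 (0.90) and KO chimera 8 (0.30) along y; no animal is high in both.

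Among the meningeal markers 1 animal led. KO chimera 4 was the highest of the 16 for 16 of the 22 markers and in the top 2 for 18, and KO chimera 8 was second for 9. The meningeal score was 0.90 in KO chimera 4 and 0.30 in KO chimera 8, and at most 0.10 in the other 14 animals. KO chimera 4 is the only array on its slide, so animal and slide cannot be told apart for it.

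Dcn, the proteoglycan decorin that binds collagen fibrils, was 2.66 in KO chimera 4, with KO chimera 8 next at 1.45 and control 6 at 1.35. The lowest, median and highest values were 0.62, 1.02 and 1.35 in control mice and 0.67, 1.08 and 2.66 in KO chimeras, so the groups overlapped except for the top 2 animals. Its probe lies at chr10:96980233-96980292 (mm9, plus strand). The related proteoglycans repeated the peak: Ogn (osteoglycin) was -1.19 in KO chimera 4 and -2.05 in KO chimera 8 against -4.39 to -2.71 elsewhere. Lum (lumican) was -2.07 and -2.56 in these animals against -3.97 to -3.01 elsewhere, and Fmod (fibromodulin) -2.10 and -2.47 against -3.51 to -2.59. Bgn (biglycan) did not, with KO chimera 4 at 0 and KO chimera 1 highest at 0.43.

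The collagens were less uniform. Col1a1 was -1.57 in KO chimera 4, just above control 4 at -1.63, and Col1a2 was 1.21, just above KO chimera 1 at 1.13. Col3a1 was highest in KO chimera 8 (-2.71), then KO chimera 4 (-2.87), and lowest in KO chimera 1 (-4.72).

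Transporters of the barrier cells of the meninges had some of the widest peaks. Slc6a13, a GABA and taurine transporter, was -0.08 in KO chimera 4 and -1 in KO chimera 8, against -2.16 to -1.39 in the others. Slc13a4, a sulfate transporter, was 1.12 in KO chimera 4, followed by control 3 at 0.02 and KO chimera 1 at -0.04. Slc22a6, an organic anion transporter, was -0.02 in KO chimera 4 and -0.46 in KO chimera 5. Slc6a20a, a proline transporter, spanned 0.84 units with KO chimera 4 on top (-1.05). Gjb2, a gap junction protein of these cells, spanned 0.63 units and was highest in control 6 (-0.01).

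Of the signalling and retinoid genes, Aldh1a2, the enzyme that makes retinoic acid, was -0.97 in KO chimera 4 and -1.61 in KO chimera 8, with KO chimera 3 at -1.68. Crabp2, a retinoic acid binding protein, was highest in control 3 (2.17) and second in KO chimera 8 (1.49). Igf2, a growth factor, was -2.92 in KO chimera 4 and -3.11 in KO chimera 3. Igfbp2, which binds it, was highest in control 5 (0.31), with KO chimera 4 (-0.16), control 3 (-0.18), control 7 (-0.20) and KO chimera 1 (-0.29) close together behind. On a second, dimmer Igfbp2 probe control 7 was highest (-0.76), then control 5 (-0.81) and control 3 (-0.86). Foxc1, a forkhead factor of meningeal development, was -1.30 in KO chimera 4 and -1.59 in control 2.

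Ptgds, the prostaglandin D synthase secreted into cerebrospinal fluid, was 7.25 in KO chimera 4, 6.82 in control 2 and 6.24 in KO chimera 8. Islr was -0.25 in KO chimera 4 and -1.07 in KO chimera 8 against -2.46 to -1.56 elsewhere. Mgp, an inhibitor of calcification, was 1.53 in KO chimera 4, with control 8 next at 0.94. Serpinf1, a secreted serpin, had control 8 and control 4 highest (both 0.97) and KO chimera 4 at 0.31.

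**Figure D4:**
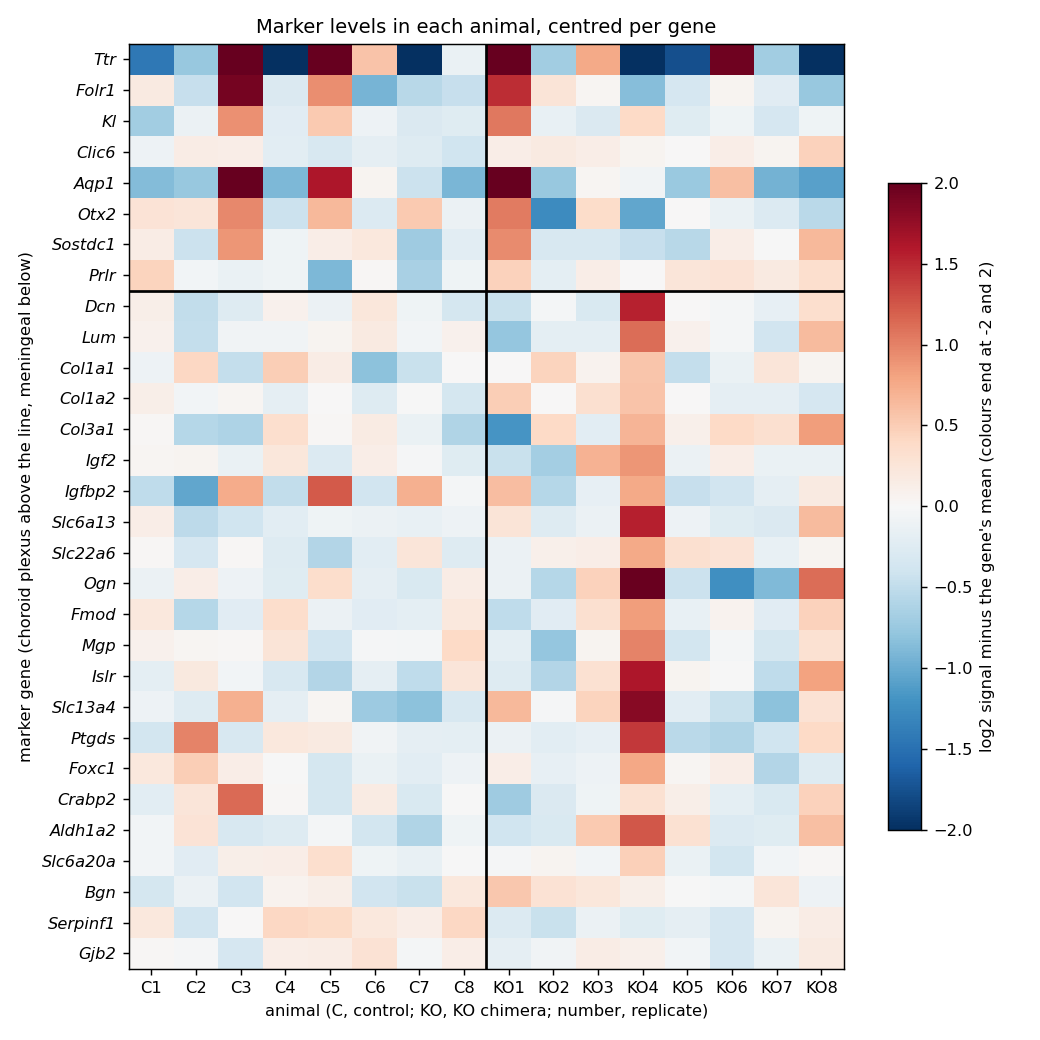
Level of each of the 30 tested markers (rows) in each animal (columns), as log2 signal minus the gene's mean, with colours ending at -2 and 2. KO chimera 4 is the highest for 16 of the 22 meningeal markers, and control 3, control 5 and KO chimera 1 are high for most choroid plexus markers.

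For Dcn the gap between KO chimera 4 and the next animal took 59.4% of its whole range, so co-variation was tested over the other 15. Col3a1 (r = 0.83, adjusted permutation p = 0.00159, rho = 0.78) and Lum (r = 0.78, adjusted permutation p = 0.00254, rho = 0.73) followed Dcn, and the other 19 of 21 markers did not pass. Both stayed at 0.76 and 0.64 without KO chimera 8 and control 2, and r on scan days 1 and 2 was 0.91 and 0.66 for Col3a1 and 0.79 and 0.94 for Lum. When the background was corrected by normexp, r was -0.20 and -0.25, so these relations turn with the background step, and there Foxc1 (r = -0.70, adjusted permutation p = 0.0148) and Igf2 (r = -0.65, adjusted permutation p = 0.0327) passed with a negative r. The median r of the 21 was 0.06, and 46 of 24362 genes (0.189%) reached 0.7. Ttr and Dcn had r = -0.47 (n = 15, raw permutation p = 0.0776, adjusted permutation p = 0.207).

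Inside the choroid plexus markers the median r over 28 pairs was 0.48 (jackknife error over animals 0.17), with 22 pairs above 0 and 5 (17.9%) at 0.7 or more. Leaving out control 3, control 5 and KO chimera 1 brought it to 0.06. Inside the meningeal markers the median over 231 pairs was 0.35 (jackknife error 0.24), with 20 pairs (8.66%) at 0.7 or more; it was 0.11 without KO chimera 4 and 0.06 without KO chimeras 4 and 8. Between the groups of markers the median over 176 pairs was -0.06 (jackknife error 0.08) and 0 pairs reached 0.7. Over pairs of all genes tested that had no marked spot the median was 0 and 1.14% reached 0.7.

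Further meningeal fibroblast genes gave the same animal: the mean centred level of the 25 tested (of 34) was 0.44 in KO chimera 4, the highest of 16, and had r = 0.72 with the meningeal score, which was 0.25 over the 15 animals without KO chimera 4. It was 0.01 in KO chimera 8. Of its 5 brightest, Cxcl12, a chemokine, peaked in KO chimera 4 (2.02), while Apod, Pdgfra, Lepr and Zic1 peaked elsewhere. The 10 genes with the highest r with the meningeal score included Ly6k (0.94), Grhl3 (0.85), Slc6a12 (0.85), a betaine and GABA transporter, and Crispld2 (0.84). Olfr385 (0.83), Gpr182 (0.82), Tas1r1 (0.82) and 9330184L24Rik (0.80) were also among them. Olfr385 was well above background on 9 arrays, so its low levels are poorly measured. All 10 peaked in KO chimera 4, as choosing by r with a score highest in that animal favours. Without KO chimera 4 their r ran from 0.14 to 0.84. Lists of other cells also stood high in this animal. The tanycyte score was 0.79, the hypothalamic score 0.65, the endothelial score 0.50 and the mural score 0.20, each the highest of 16. Control 7 was close behind for the mural score, at 0.17. The part of these lists in the result was not tested.

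KO chimera and control mice were then compared for each gene with limma, to ask whether the markers differed between the labelled groups. Of the 30 markers, 0 passed an adjusted p of 0.05, where 925 of 24363 genes (3.80%) did, 250 higher (1.03%) and 675 lower (2.77%) in KO chimeras. At an unadjusted p under 0.05, 5 of 30 markers passed, against 20.7% of all genes. The median difference was 0.06 over the markers and 0 over all genes, and 18 were above 0 and 12 below. The count of 925 was 361 to 1028 with 1 animal left out, and was smaller by over 1.5 times without control 1 (539), control 5 (361), control 7 (367), KO chimera 2 (437), KO chimera 4 (582), KO chimera 6 (404) or KO chimera 7 (602).

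For Ttr the KO chimera minus control difference was -0.27 ± 1.19 (SE, 95% interval -2.81 to 2.28), and an exact permutation test over 12870 assignments gave p = 0.836 (n = 8 and 8). The sign turned without control 3 (0.40), control 5 (0.21), KO chimera 4 (0.07) or KO chimera 8 (0.08), and the difference was 0.10 on scan day 1 and -0.64 on day 2. Dcn differed by 0.22 ± 0.22 (95% interval -0.26 to 0.69; exact permutation p = 0.459), and by 0.01 without KO chimera 4.

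Among the 5 markers with an unadjusted p under 0.05, Slc22a6 was highest in KO chimera 4, and Prlr and Bgn in KO chimera 1. Clic6 was highest in KO chimera 8, and Serpinf1 in control 8 and control 4. Clic6 was 1.87 ± 0.20 in control mice and 2.16 ± 0.14 in KO chimeras (SD, n = 8), a difference of 0.29 ± 0.09 SE with a limma adjusted p of 0.0638; the adjusted p was 0.0408 without control 2 and 0.0477 without control 3. Serpinf1 was 0.73 ± 0.27 and 0.38 ± 0.20, a difference of -0.35 ± 0.11 (limma adjusted p = 0.0945), with an adjusted p of 0.03 without control 2. Bgn (0.32, limma adjusted p = 0.12), Slc22a6 (0.34, limma adjusted p = 0.143) and Prlr (0.36, limma adjusted p = 0.197) were the other 3.

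**Figure D5:**
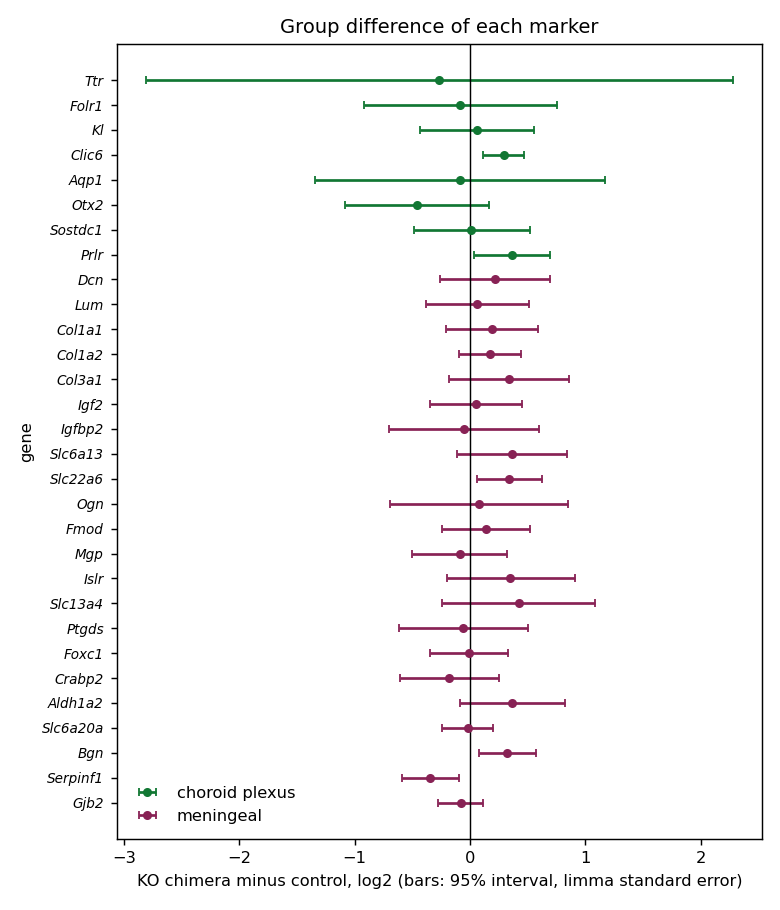
KO chimera minus control difference of each of the 30 tested markers (x, log2), with 95% intervals from the limma standard error; choroid plexus markers in green and meningeal ones in purple. The interval of Ttr runs from -2.81 to 2.28, and 5 intervals leave out 0 before adjustment for multiple testing.

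Markers of neighbouring cells were described in the same way, each list by its count, its median and its brightest genes. Over all genes tested 12190 of 24363 differences were positive, 250 were called higher and 675 lower. All 12 ependymal genes tested were positive in KO chimeras, with a median difference of 0.47; Tekt1, of the ciliary axoneme, was the 1 that passed (0.52 ± 0.14, limma adjusted p = 0.045), and the brightest, Fam183b and Rarres2, differed by 0.34 and 0.50 without passing. The ependymal score was -1.01 to 0.27 in control mice and -0.19 to 0.69 in KO chimeras, and had r = 0.12 with the choroid plexus score. Tekt1's list kept 1 call without control 2, control 3 or KO chimera 8, and had 0 without any other animal. Of 13 thalamic genes 12 were negative (median -0.82), and Prkcd (-1.87) and Adarb1 (-0.62) passed, while Ramp3 (-1.64) did not. The thalamic score was highest in control 7 (1.36) and control 5 (1.27), with at most 0.69 elsewhere, and 0 thalamic genes were called without control 1, control 5, control 7, KO chimera 1, KO chimera 2, KO chimera 4, KO chimera 6, KO chimera 7 or KO chimera 8, and 1 without control 3, control 8 or KO chimera 5. Of 13 oligodendrocyte genes 11 were negative (median -0.25), and the myelin genes Mobp (-0.68), Mal (-0.66), Cldn11 (-0.48) and Mog (-0.36) passed; Ermn (0.09) did not. The oligodendrocyte score was highest in control 5 (0.46), followed by control 6 and control 7 (both 0.29), and the list had 3 to 6 calls with 1 animal left out, 6 without control 2. The part of these animals in the differences was not tested beyond leaving each out.

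The tanycyte list had a median of 0.16 with Dio2, the thyroid hormone deiodinase, called lower (-0.76; 0 calls without control 7 or KO chimera 6, 2 without control 2), and the brightest, Vim (0.20) and Lhx2 (-0.36), not called. The hypothalamic, endothelial, mural and border macrophage lists had medians of 0.16, 0.06, 0.04 and -0.18 and 0 genes called, including their brightest, Oxt (0.14), Hcrt (-0.48), Slc2a1 (-0.30), Ly6c1 (-0.06), Vtn (0.03), Tagln (-0.28), Ms4a7 (-0.26) and Stab1 (-0.31). The hypothalamic list had 1 call without control 6 or without KO chimera 3. The endothelial, mural and border macrophage lists kept 0 calls with any 1 animal left out. In the red blood cell list (median -0.36) Hbb-b2 was called lower (-0.58; 3 calls without control 8 and 2 without KO chimera 7), beside Hba-a1 (-0.36) and Hba-a2 (-0.22), and in the pituitary list (median -0.17) Chgb (-0.24) was, beside Lhb (0.30), with 0 calls without control 1, 2, 4, 5, 6 or 7 or KO chimera 1, 5, 6 or 8. The border macrophage, red blood cell and pituitary scores had r of -0.09, -0.12 and -0.02 with the choroid plexus score and 0.15, -0.37 and -0.07 with the meningeal score.

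The sequence before the transcription start was read for the members in RefSeq's promoter windows (GRCm38.p6), to see what members that move together share. Windows were found for 22 members, 5 choroid plexus and 17 meningeal, 33 in all, since a gene can have several starts. Ttr, Dcn, Folr1, Sostdc1 and Lum had none, so this could be read for only part of the members that moved together. Windows of Aqp1 and Kl are shown because they moved with Ttr, those of Otx2 and Slc6a13 because they hold a homeodomain word, and that of Ogn because it holds a TATA word. Each is the 250 bases before the start, 5′ to 3′ along the gene, and capitals mark the words.
Aqp1, chr6:55336049-55336298, + strand: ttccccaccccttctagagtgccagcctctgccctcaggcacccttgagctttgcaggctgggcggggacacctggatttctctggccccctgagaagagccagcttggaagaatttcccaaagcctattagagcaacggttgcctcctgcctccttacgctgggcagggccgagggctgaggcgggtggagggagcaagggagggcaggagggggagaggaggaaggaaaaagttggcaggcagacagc
Kl, chr5:150952357-150952606, + strand: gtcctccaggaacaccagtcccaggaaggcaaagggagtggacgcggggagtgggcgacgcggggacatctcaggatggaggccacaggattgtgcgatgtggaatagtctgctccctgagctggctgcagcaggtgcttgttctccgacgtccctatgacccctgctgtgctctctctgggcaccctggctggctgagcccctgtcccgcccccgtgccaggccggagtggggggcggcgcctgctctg
Otx2, chr14:48665110-48665359, - strand: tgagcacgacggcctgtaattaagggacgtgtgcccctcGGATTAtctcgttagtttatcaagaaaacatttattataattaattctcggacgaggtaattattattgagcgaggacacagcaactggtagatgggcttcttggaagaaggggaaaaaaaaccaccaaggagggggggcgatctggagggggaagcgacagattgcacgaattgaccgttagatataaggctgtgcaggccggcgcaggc
Slc6a13, chr6:121300038-121300287, + strand: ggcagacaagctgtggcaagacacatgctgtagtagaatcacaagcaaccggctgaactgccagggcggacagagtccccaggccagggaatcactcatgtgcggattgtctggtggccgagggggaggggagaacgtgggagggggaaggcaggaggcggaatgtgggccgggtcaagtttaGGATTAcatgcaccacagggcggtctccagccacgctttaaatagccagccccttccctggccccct
Ogn, chr13:49607765-49608014, + strand: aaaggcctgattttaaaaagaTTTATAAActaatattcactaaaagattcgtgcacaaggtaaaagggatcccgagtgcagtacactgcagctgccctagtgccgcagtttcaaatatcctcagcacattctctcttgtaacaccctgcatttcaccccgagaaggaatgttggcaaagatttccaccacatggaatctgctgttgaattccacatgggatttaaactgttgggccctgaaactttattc

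Words were searched on both strands. TAATCC, the word that OTX-type homeodomain proteins prefer, was in 3 of the 33 windows, 1 each of Otx2, Slc6a13 and Slc22a6, and in 6.25% of all 32851 windows. GTAAACA, a forkhead word, was in 1 of the 33, a window of Prlr, and in 3.17% of all. TATAAA was in 4 of the 33, 1 each of Otx2, Slc4a5, Col3a1 and Ogn, and in 12.4% of all. In Ogn 2 matches overlap. The windows of Aqp1 and Kl held none of the words. A match is only a match of letters.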

How the data were processed

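Hypothalamus RNA of 16 mice was hybridised to 1-colour Agilent arrays. The authors deposited the scanner's processed intensity per spot, linear and background-subtracted, made with Agilent Feature Extraction (version 10.7, per the submitters' processing notes). The deposited value table is on the log2 scale; its correlation with the scanner's log2 values was at least 0.9996 and its slope 0.978 to 1.025, with medians of 5.21 to 5.26 and a floor of 2.2 (22.3% of values). It is not centred per gene, and the step that aligned the arrays is unknown. It served as an alternative.

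Spots marked as outliers were left out. The array's 75th percentile over non-control spots was subtracted from log2 processed intensity, and replicate spots were averaged. Probes detected above background on 8 or more arrays with at least 4 values per group were kept (35144 of 55681), and the brightest probe per gene was tested. Probes were named through RefSeq accession (28026), current symbol (3418) or older symbol (295); 23942 kept the file's name. The probe positions are the files' own, in mm9. Groups were compared with limma 3.58.1 (R 4.3.3), Benjamini-Hochberg over all genes, threshold 0.05. Figures used matplotlib 3.10.9 (Python 3.11.15). The fit was tested on simulated data.

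The members and gene lists were chosen with earlier results of these data known. Named were all members, the 5 brightest of each further choroid plexus and meningeal list, the 2 brightest of every other list, and the 10 genes most like each score (a gene under this rule is not reported here); other list genes were named after their values were seen. Clic6 and Prlr were singled out after their values were seen. Each array is a separate mouse per the labels, and the number of arrays limits the precision. KO chimera 2 has a zero for the letter O in its title. Same-numbered animals deviated together with correlations of -0.07 to 0.24 (3 of 8 above 0.1), so the numbers were not used as pairs. Alternatives covered normalization, background, filters, slide, scan day and animals left out.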

Additional observations from a re-analysis of the deposited data

Results flagged for a closer look

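Markers and scores gave 64 groups of 8 animals, which are not independent, since markers co-vary and each score averages the same markers. Chance gives about 1 in 20 for independent groups, so it is no measure for the count here. In 7 of the 64, 1 animal stood apart from the rest by a gap above the 95% critical value of Dixon's test for 8 values. Among choroid plexus markers these were Aqp1 in KO chimera 1 (gap 0.542 of the range; -1.23 against -3.24 for the next), Clic6 in KO chimera 8 (0.623; 2.47 against 2.2) and the choroid plexus score in KO chimera 1 (0.555; 1.52 against 0.37). Among meningeal markers they were Dcn in KO chimera 4 (0.61; 2.66 against 1.45), Ptgds in control 2 (0.569; 6.82 against 6.05), Crabp2 in control 3 (0.594; 2.17 against 1.28) and, as a low value, Lum in control 2 (0.614; -3.67 against -3.26).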

How the results depend on the processing

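The count of 925 genes ran from 361 to 1028 with 1 animal left out, and became 523 with quantile normalization, 255 with normexp, 535 in the deposited table, 594 with no filter, 477 with slide as a fixed block, 0 within scan day 1, 7 within scan day 2 and 2019 at a threshold of 0.1. In alternatives chosen after seeing the data it was 260 without KO chimeras 4 and 8, 126 without control 3, control 5 and KO chimera 1, and 565 with the meningeal score as a covariate. The count of 0 markers became 1 with quantile normalization, the deposited table, the filter on all 16 arrays, slide as a random block and trended robust eBayes (Clic6 each time), with scan day as a block (Slc22a6) and with array weights (Serpinf1), and 2 at a threshold of 0.1 (Clic6, Serpinf1). With the replicate block, 791 genes and 0 markers were called, Ttr differed by -0.27 (exact sign-flip p = 0.844) and Dcn by 0.22 (exact sign-flip p = 0.414); the animals share only a number, and 3 of 8 matched their own number best. Ttr against control was 0.10 within scan day 1, 0.53 without KO chimeras 4 and 8 and 0.41 without control 3, control 5 and KO chimera 1, and Dcn -0.06 without KO chimeras 4 and 8. The number of markers that followed Ttr fell from 5 to 2 within each scan day, and that for Dcn from 2 to 1 within each day and to 0 with normexp, where Foxc1 (-0.70) and Igf2 (-0.65) passed with a negative r. The median pairwise r of choroid plexus markers was 0.25 by Spearman, 0.10 without the 2 animals farthest in Ttr and 0.06 without control 3, control 5 and KO chimera 1. That of meningeal markers was 0.62 within scan day 2, -0.01 within control mice and 0.06 without KO chimeras 4 and 8, and that between the groups 0.07 with normexp and -0.14 within KO chimeras. The cause of these changes was not tested, beyond the fewer animals in some.

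Signs turned under several alternatives, and of the turned values r of Igf2 with Dcn under normexp alone passed 0.05 (adjusted permutation p = 0.0327). With quantile normalization, the sign turned for the difference of Sostdc1 (-0.06), Lum (-0.06), Igf2 (-0.09), Ogn (-0.05), and the difference of Kl and Ptgds came to 0 after rounding. With normexp background correction, the sign turned for the difference of Foxc1 (0.04) and r with Dcn of Lum (-0.25), Col3a1 (-0.20), Igf2 (-0.65), Slc6a13 (-0.09), Slc22a6 (-0.08), Ogn (-0.37), Fmod (-0.54), Islr (-0.17), Aldh1a2 (-0.28), Slc6a20a (-0.34). In the deposited table, the sign turned for the difference of Kl (-0.01), Sostdc1 (-0.07), Lum (-0.07), Igf2 (-0.10), Ogn (-0.05). With slide as a fixed block, the sign turned for the difference of Ttr (0.04), Folr1 (0.02), Aqp1 (0.02), Lum (-0.07), Col1a1 (-0.01), Igf2 (-0.12), Ogn (-0.23), Fmod (-0.04). Within scan day 1, the sign turned for the difference of Ttr (0.10), Folr1 (0.25), Aqp1 (0.19), Lum (-0.08), Col1a1 (-0.08), Igf2 (-0.30), Igfbp2 (0.10), Ogn (-0.22), Fmod (-0.09), Islr (-0.02), Aldh1a2 (-0.06) and r with Ttr of Clic6 (-0.28) and r with Dcn of Col1a1 (0.12), Igfbp2 (0.11), Slc13a4 (0.07). Within scan day 2, the sign turned for the difference of Kl (-0.01), Sostdc1 (-0.43), Mgp (0.15), Ptgds (0.26), Foxc1 (0.21), Slc6a20a (0.02) and r with Ttr of Prlr (0.15) and r with Dcn of Igf2 (-0.34), Slc22a6 (-0.37), Ogn (-0.33), Fmod (-0.24), Mgp (-0.17), Islr (-0.44), Foxc1 (0.06), Crabp2 (-0.34), Aldh1a2 (-0.30), Slc6a20a (-0.26). With array weights, the sign turned for the difference of Kl (-0.04), Sostdc1 (-0.19), Ogn (-0.08), and the difference of Foxc1 came to 0 after rounding. Without KO chimeras 4 and 8, the sign turned for the difference of Ttr (0.53), Folr1 (0.17), Aqp1 (0.09), Sostdc1 (-0.01), Dcn (-0.06), Lum (-0.22), Igf2 (-0.07), Ogn (-0.43), Fmod (-0.05). Without control 3, control 5 and KO chimera 1, the sign turned for the difference of Ttr (0.41), Folr1 (0.16), Aqp1 (0.21), Igfbp2 (0.17), Crabp2 (0.01), Slc6a20a (0.05). With the meningeal score as a covariate, the sign turned for the difference of Ttr (0.06), Folr1 (0.01), Lum (-0.09), Igf2 (-0.06), Ogn (-0.23). On the gene's other probe, the sign turned for r with Ttr of Folr1 (-0.06), Prlr (0.08). Calls in the hypothalamic, further choroid plexus and further meningeal lists ran from 0 to 1 with 1 animal left out. With 1 animal left out (for lists, chosen after seeing the data), calls ran from 0 to 1 for ependyma, 0 to 2 for tanycyte, 0 to 3 for thalamus, 3 to 6 for oligodendrocyte, 1 to 3 for red blood cell and 0 to 1 for pituitary genes, markers called ran from 0 to 2 and the differences ran as follows: Ttr -0.92 to 0.40, Folr1 -0.30 to 0.18, Kl -0.08 to 0.20, Clic6 0.25 to 0.33, Aqp1 -0.47 to 0.27, Otx2 -0.64 to -0.31, Sostdc1 -0.12 to 0.14, Prlr 0.26 to 0.45, Dcn 0.01 to 0.30, Lum -0.09 to 0.18, Col1a1 0.09 to 0.27, Col1a2 0.10 to 0.23, Col3a1 0.24 to 0.53, Igf2 -0.07 to 0.15, Igfbp2 -0.20 to 0.12, Slc6a13 0.17 to 0.43, Slc22a6 0.26 to 0.40, Ogn -0.20 to 0.26, Fmod 0.03 to 0.23, Mgp -0.24 to 0.01, Islr 0.15 to 0.46, Slc13a4 0.19 to 0.57, Ptgds -0.27 to 0.08, Foxc1 -0.12 to 0.07, Crabp2 -0.26 to -0.03, Aldh1a2 0.21 to 0.44, Slc6a20a -0.09 to 0.03, Bgn 0.27 to 0.37, Serpinf1 -0.43 to -0.31, Gjb2 -0.14 to -0.04.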
